A study of Sus scrofa with 11 samples.

Results

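Hyaluronan is a long sugar polymer of the extracellular matrix, and the genes described here make it, break it down or bind it in porcine coronary arteries. The set lists 7 symbols, HAS2, HAS3, CEMIP, HYAL2, CD44, VCAN and TNFAIP6, which were matched to pig Ensembl gene identifiers in the deposited count tables. A match was found for 6 of the 7, and all 6 were among the 15348 genes tested out of 25880 identifiers. HAS3 is not analysed here. The set was chosen by its CPM in cultured and native arteries, CEMIP being higher in every culture, so values against native are given as a description and carry no test.

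The series measured RNA by paired-end sequencing in 11 libraries of coronary artery, to characterise an ex vivo vessel culture for the study of stents. Stented high-flow arteries (3 libraries, marked Stent/Flow ++) and stented static arteries (2 libraries, marked Stent/Flow -) carried a stent in a bioreactor. Low-flow (2 libraries, marked Flow +) and high-flow arteries (2 libraries, marked Flow ++) were kept in a bioreactor with no stent. Native arteries (2 libraries) are the uncultured controls. Age, sex, breed and time in culture are not stated by the labels, although both stented static sample names contain 3d and that of stented high-flow replicate 3 contains 7d. The number 25 occurs in the names of stented high-flow replicate 1 and native replicate 2, without a statement that they share a pig. Nor do they tie libraries of the same group to different pigs, and a p-value here reflects the spread between libraries, part of which may be technical.

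Hyaluronan synthases sit in the plasma membrane and extrude the growing chain into the matrix, drawing on UDP-glucuronate and UDP-N-acetylglucosamine made in the cytosol. CEMIP and the hyaluronidases cut the chain, CD44 is its main cell surface receptor, and versican, link proteins and TNFAIP6 tie it into larger networks. In the artery wall, hyaluronan and versican are best known from the loose matrix of intimal thickening after injury. These roles were worked out mainly in human and mouse cells.

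Depth was 13.5 to 22.2 in stented high-flow, 14.2 to 21.9 in stented static, 22.8 to 26.8 in low-flow, 19.0 to 20 in high-flow and 17.5 to 20.2 in native libraries, in units of 1e6 counts. Levels below are counts per 1e6 on scaled library sizes (CPM), and 3 counts in a library corresponded to 0.105 to 0.215 CPM. CPM is not corrected for transcript length, so levels are compared between samples and not between genes. Smooth muscle markers were present in every library: the summed level of 10 contractile markers was 4309 to 6994 CPM in stented high-flow, 580 to 3199 CPM in stented static, 8101 to 8115 CPM in low-flow, 1661 to 5851 CPM in high-flow and 33970 to 41900 CPM in native libraries. The Y-linked gene EIF1AY had 0 or 1 count in each stented static and low-flow library and at least 237 in each of the others, so sex-linked origin cannot be told apart from culture in stented static or low-flow against native, in stented high-flow against stented static and in low-flow against high-flow. In bulk RNA, fewer cells of a type and less RNA per cell cannot be told apart.

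HAS2 (ENSSSCG00000005992), the synthase best known from vascular smooth muscle, was highest in stented high-flow and lowest in stented static arteries. It had 17.2, 43.5 and 42.3 CPM in stented high-flow, 2.41 and 4.26 CPM in stented static, 15.8 and 8.28 CPM in low-flow, 18.5 and 4.83 CPM in high-flow and 7.55 and 9.15 CPM in native libraries. Every stented static library lay below every other library. The stented high-flow libraries lay above those of stented static, low-flow and native arteries, while replicate 1 of stented high-flow overlapped with high-flow replicate 1. The group means ran from stented high-flow (34.3 ± 14.9 CPM, SD, n = 3) through low-flow (12.04 ± 5.32), high-flow (11.7 ± 9.68) and native (8.35 ± 1.13) to stented static (3.33 ± 1.31, n = 2 for each of these), and the low-flow, high-flow and native libraries overlapped one another. Against native, HAS2 stood at a log2 fold change of 2.04 ± 0.61 (standard error) in stented high-flow, -1.33 ± 0.65 in stented static, 0.53 ± 0.63 in low-flow and 0.48 ± 0.63 in high-flow.

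CEMIP, which binds hyaluronan and is required for its cleavage outside the lysosome in fibroblasts, separated all cultured from all native libraries. The gene lies on chromosome 7, 49622534 to 49792547 in Sscrofa11.1. Its level was 114, 99.6 and 135 CPM in stented high-flow, 22.8 and 54.1 CPM in stented static, 66.4 and 34.9 CPM in low-flow, 76.8 and 95.01 CPM in high-flow and 0.977 and 0.863 CPM in native libraries. Each native library had 15 counts of CEMIP, so its native level rests on few reads but is above the 3-count floor. Among the cultures, stented high-flow (116 ± 17.9 CPM) lay above high-flow (85.9 ± 12.9 CPM) without overlap, as in 5.49% of all genes. High-flow lay above low-flow (50.6 ± 22.3 CPM) without overlap, as in 22.3%, while low-flow and stented static (38.5 ± 22.2 CPM) overlapped. Against native, its log2 fold change was 6.98 ± 0.55 in stented high-flow, 5.38 ± 0.52 in stented static, 5.78 ± 0.53 in low-flow and 6.54 ± 0.55 in high-flow. Counted from the largest rise, these changes ranked 48, 89, 75 and 55 in that order among the 15348 genes. The authors' deposited table lists CEMIP in all 4 comparisons with native, at 6.99, 5.38, 5.79 and 6.55, and none of the other 5 genes.

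HYAL2 (chromosome 13, 32805220 to 32813684), a hyaluronidase anchored at the cell surface, had overlapping libraries in most pairs of groups. Its level was 30.9, 54.0 and 74.4 CPM in stented high-flow, 114 and 40.3 CPM in stented static, 37.6 and 52.7 CPM in low-flow, 56.8 and 52.2 CPM in high-flow and 43.4 and 34.2 CPM in native libraries. The means were 53.1 ± 21.8 CPM in stented high-flow, 77.2 ± 52.2 in stented static, 45.2 ± 10.7 in low-flow, 54.5 ± 3.28 in high-flow and 38.8 ± 6.51 in native, and each group overlapped with its neighbour in order of size. Both high-flow libraries were above both native ones, as in 31.3% of all genes. Stented static replicate 1 alone was above 100 CPM, and the same library had the highest summed macrophage markers (2341 CPM over 12 genes) and adipocyte markers (2192 CPM over 7 genes) of all 11, whose part in this value was not tested. The log2 fold change against native was 0.45 ± 0.45 in stented high-flow, 0.99 ± 0.49 in stented static, 0.22 ± 0.48 in low-flow and 0.49 ± 0.49 in high-flow arteries. Without stented static replicate 1 the stented static value was 0.07.

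CD44 (chromosome 2, 25788699 to 25884209), the receptor, was highest in stented high-flow arteries and differed little among the other groups. It stood at 239, 332.7 and 411 CPM in stented high-flow, 136 and 182 CPM in stented static, 179 and 164 CPM in low-flow, 266 and 148 CPM in high-flow and 130 and 189 CPM in native libraries. All 3 stented high-flow libraries lay above all native, stented static and low-flow libraries, and only high-flow replicate 1 reached into their range. The means were 328 ± 86.1 CPM in stented high-flow, 159 ± 32.7 in stented static, 172 ± 10.5 in low-flow, 207 ± 83.2 in high-flow and 159 ± 41.9 in native, and each group overlapped with the next in order. On the log2 scale, CD44 against native was at 1.04 ± 0.34 in stented high-flow, -0.01 ± 0.36 in stented static, 0.11 ± 0.36 in low-flow and 0.38 ± 0.36 in high-flow.

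VCAN (chromosome 2, 91682177 to 91811674) encodes versican, the large proteoglycan that binds hyaluronan through its amino-terminal domain. It had 939, 670 and 558 CPM in stented high-flow, 120 and 205 CPM in stented static, 1067 and 823 CPM in low-flow, 926 and 534 CPM in high-flow and 242 and 227 CPM in native libraries. The 7 libraries cultured with flow were all above the native ones, both stented static libraries were below them, and the 3 flow groups overlapped one another. In order of means, low-flow (945 ± 173 CPM), high-flow (730 ± 277) and stented high-flow (722 ± 195.7) stood above native (234 ± 10.8) and native above stented static (162 ± 60.0). In log2 fold change against native, VCAN was at 1.62 ± 0.37 in stented high-flow, -0.53 ± 0.38 in stented static, 2.01 ± 0.39 in low-flow and 1.64 ± 0.39 in high-flow.

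TNFAIP6 (chromosome 15, 862013 to 881352) encodes TSG-6, which moves the heavy chains of inter-alpha-inhibitor onto hyaluronan. Its level was 14.8, 22.5 and 55.6 CPM in stented high-flow, 9.37 and 3.35 CPM in stented static, 15.7 and 11.6 CPM in low-flow, 27.3 and 5.90 CPM in high-flow and 8.14 and 6.79 CPM in native libraries. The spread was wide: the high-flow libraries lay on both sides of the native ones, while the stented high-flow and low-flow libraries were all above them. The means fell in the order stented high-flow (31.0 ± 21.7 CPM), high-flow (16.6 ± 15.1), low-flow (13.6 ± 2.93), native (7.46 ± 0.956) and stented static (6.36 ± 4.26), where only low-flow and native did not overlap as neighbours. Relative to native, the log2 fold change of TNFAIP6 was 2.05 ± 0.73 in stented high-flow, -0.22 ± 0.75 in stented static, 0.87 ± 0.75 in low-flow and 1.15 ± 0.76 in high-flow.

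Past the threshold used for all genes, an edgeR quasi-likelihood p below 0.05 after Benjamini-Hochberg adjustment, lay 4 of the 6 genes in stented high-flow (HAS2, CEMIP, CD44 and VCAN), CEMIP alone in stented static, and both CEMIP and VCAN in each of the unstented cultures. Over all 15348 genes the shares past it were 24.3% in stented high-flow, 12.7% in stented static, 12.4% in low-flow and 14.8% in high-flow. All libraries of the culture lay above both native ones in 25.4%, 28.9%, 33.5% and 31.3% of genes, in that order. They lay below both native ones in 27.6%, 29.8%, 34.4% and 31.5%. Since the choice of the set used these contrasts, the counts are a description. All 4 comparisons share the same native libraries.

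**Figure D1:**
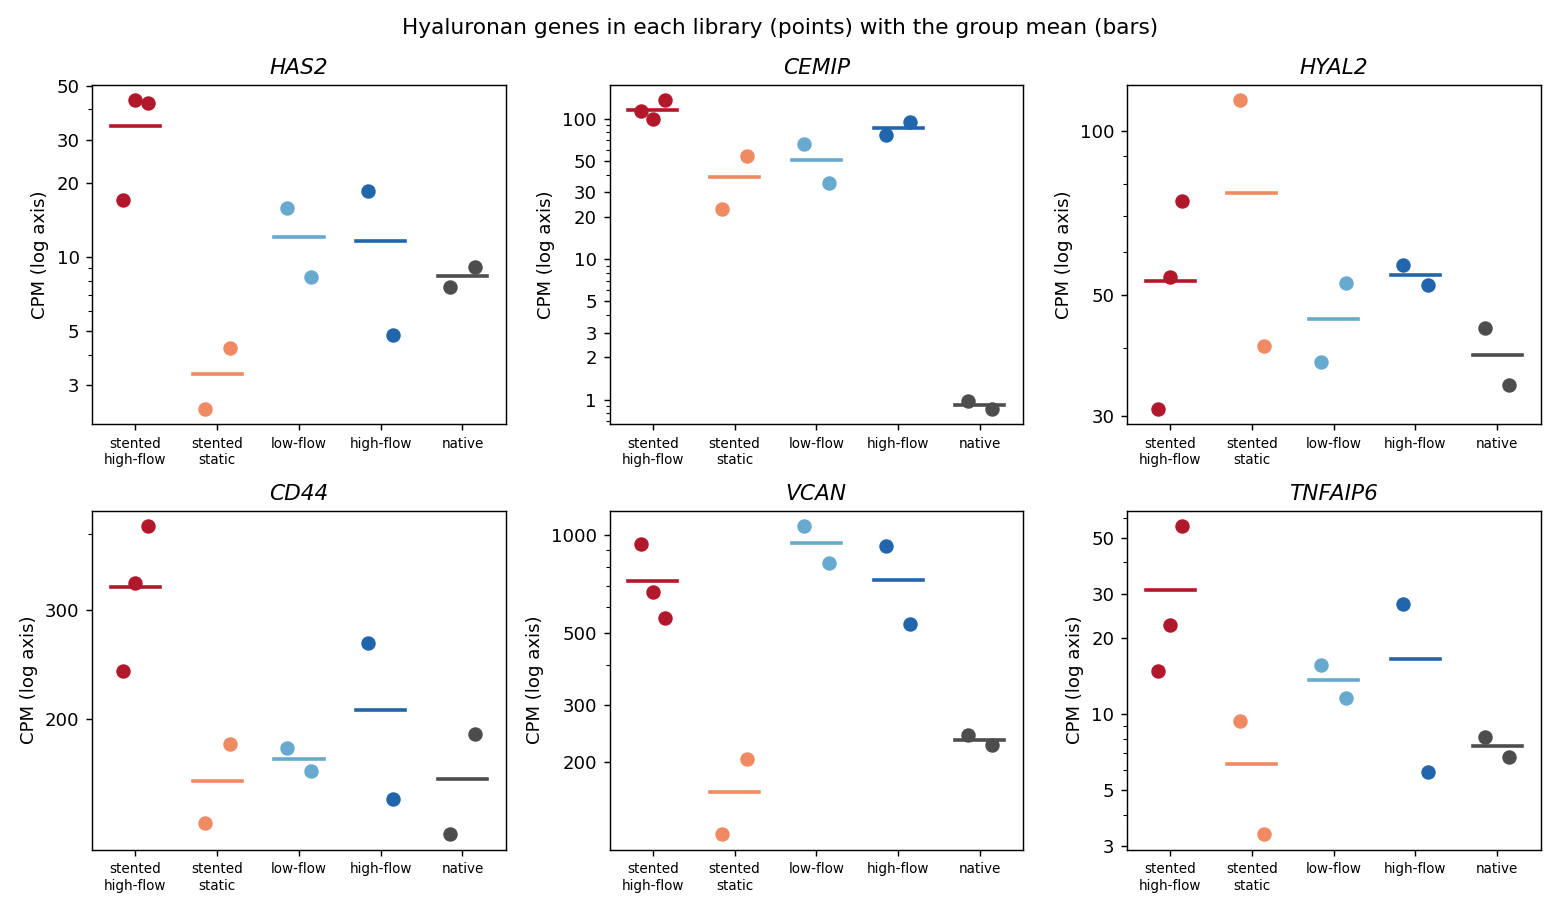
Each panel plots 1 gene, with CPM on a log axis for every library (points) and the group mean (bars), by group. CEMIP was near 1 CPM in both native libraries and at 22.8 CPM or more in every cultured one, and HAS2 and VCAN were lower in both stented static libraries than in any other library.

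Stented high-flow and stented static arteries both carried a stent and differed in their flow mark. The d marks in their sample names, where given, and their Y-linked counts differed as well, as stated above. Neither can be told apart from flow in this contrast. CPM in all 5 groups was known when the set was chosen, so the p-values of its genes between cultured groups are those of the fit over all genes and are not independent of that choice. HAS2 and VCAN were higher in stented high-flow. HAS2 was 10.4-fold higher (log2 fold change 3.37 ± 0.66, 95% interval 1.92 to 4.83, edgeR adjusted p = 0.0263), with 3 of 3 stented high-flow libraries above both stented static ones. VCAN was 4.45-fold higher (2.15 ± 0.38, interval 1.32 to 2.98, edgeR adjusted p = 0.0169), again with no overlap. These 2 of 6 genes compare with 2.85% of all genes called in this contrast. An unadjusted p under 0.05 was found for 5 of 6, against 19.1% of all genes. CEMIP (1.6 ± 0.40, edgeR adjusted p = 0.0578), TNFAIP6 (2.28 ± 0.74, adjusted p = 0.123) and CD44 (1.05 ± 0.34, adjusted p = 0.126) did not pass, and their libraries did not overlap. Over all genes, 14.4% were higher in every stented high-flow than in either stented static library. DESeq2 called CEMIP, TNFAIP6 and CD44, with adjusted p-values of 0.00377, 0.013 and 0.0473. HYAL2 was at -0.54 ± 0.44 (edgeR adjusted p = 0.552), with an interval of -1.50 to 0.42.

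The stented static replicates weighed heavily here. Without stented static replicate 1 neither gene passed in edgeR (adjusted p = 0.186 for HAS2 and 0.129 for VCAN), and without replicate 2 CEMIP passed as well (log2 fold change 2.36, adjusted p = 0.0136). HAS2 also missed the threshold in edgeR without stented high-flow replicate 2 (adjusted p = 0.0668), native replicate 1 (0.0509) or native replicate 2 (0.0504). Over the 11 fits that each left out 1 library, the log2 fold change stayed between 3.01 and 3.84 for HAS2 and between 1.81 and 2.59 for VCAN. In the same contrast 4 of 7 adipocyte markers and 1 of 12 macrophage markers were lower in stented high-flow, and 1 of 10 contractile markers was higher. Over all genes, 1.67% were called lower and 1.18% higher. Of 6 lymphocyte, 5 lymphatic endothelial and 6 Schwann and neural markers, 1 each was lower, and the Schwann and neural sums were 17.7 to 71.1 CPM in stented high-flow, against 139 to 182 CPM in stented static. The summed macrophage markers were 416 to 848 CPM in stented high-flow, against 1011 to 2341 CPM in stented static. Their part in the differences of HAS2 and VCAN was not tested. None of 10 adventitial fibroblast markers was called, with sums of 4440 to 7136 CPM in stented high-flow and 2042 to 4278 CPM in stented static.

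Low-flow against high-flow compared the 2 strengths of flow without a stent. None of the 6 genes was called by edgeR or by DESeq2, where edgeR called 0.104% of all genes. None had an unadjusted p under 0.05, against 8.05% of all genes. CEMIP was at -0.76 ± 0.41 on the log2 scale (edgeR adjusted p = 0.667, interval -1.67 to 0.14). Both low-flow libraries were below both high-flow ones, as in 22.3% of all genes. HAS2 was at 0.04 ± 0.62 (edgeR adjusted p = 0.993), and its interval of -1.32 to 1.41 includes changes of more than 2-fold in either direction. VCAN was at 0.37 ± 0.38, CD44 at -0.27 ± 0.36, TNFAIP6 at -0.28 ± 0.74 and HYAL2 at -0.27 ± 0.48 (edgeR adjusted p = 0.816 to 0.936).

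Stented high-flow against high-flow compared arteries with and without a stent under the same flow mark. No gene passed in edgeR, 0% of 15348, with 467 at an unadjusted p under 0.05 and 6 called by DESeq2. HAS2 alone in the set had an unadjusted p under 0.05 in edgeR, at a log2 fold change of 1.56 ± 0.60 (interval 0.25 to 2.87, adjusted p = 1). Without high-flow replicate 1 this change was 2.83 and without high-flow replicate 2 it was 0.88, the values of the 2 high-flow libraries being 18.5 and 4.83 CPM. VCAN was at -0.02 ± 0.35 with an interval of -0.78 to 0.75, which leaves out a change of 2-fold in either direction. CD44 was at 0.67 ± 0.34, CEMIP at 0.44 ± 0.38, TNFAIP6 at 0.90 ± 0.69 and HYAL2 at -0.04 ± 0.44, all with an edgeR adjusted p of 1.

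**Figure D2:**
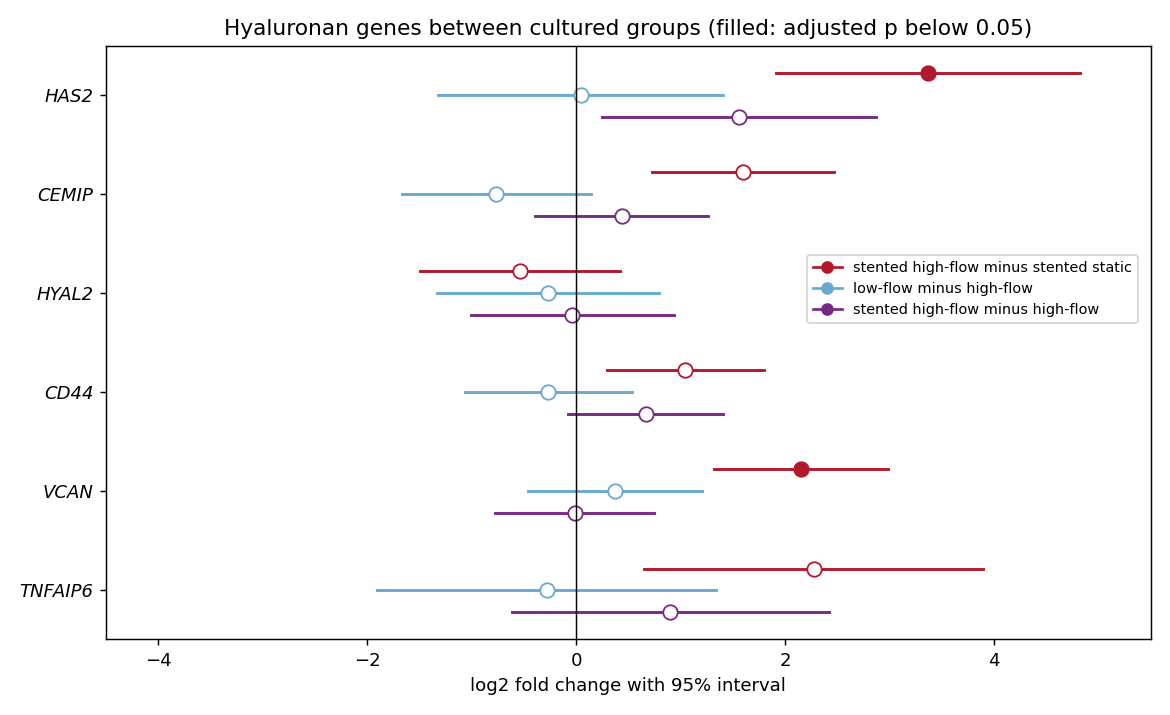
The horizontal axis is the log2 fold change between cultured groups and the bars are 95% intervals of the edgeR fit, with filled circles where the adjusted p was below 0.05. HAS2 (3.37) and VCAN (2.15) in stented high-flow minus stented static are the only filled circles.

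Ratios of counts within a library do not depend on scaling. CEMIP counts divided by HAS2 counts gave 6.65, 2.29 and 3.19 in stented high-flow, 9.46 and 12.7 in stented static, 4.20 and 4.21 in low-flow, 4.15 and 19.7 in high-flow cultures and 0.129 and 0.0943 in native libraries. All cultured libraries were above both native ones, and stented static was above stented high-flow without overlap. VCAN divided by CD44 gave 3.92, 2.01 and 1.36 in stented high-flow, 0.886 and 1.13 in stented static, 5.95 and 5.0 in low-flow, 3.49 and 3.61 in high-flow cultures and 1.87 and 1.2 in native libraries. It was highest in both low-flow libraries, and the stented high-flow libraries overlapped with native. Within families, CEMIP divided by its transmembrane relative CEMIP2 was 0.408 to 2.19 in the 9 cultured libraries, against 0.0393 and 0.0560 in native. HAS2 divided by HAS1 was 3.73, 26.8 and 5.57 in stented high-flow, 0.693 and 1.13 in stented static, 3.42 and 2.03 in low-flow, 3.87 and 0.839 in high-flow cultures and 1.81 and 3.70 in native libraries, so only stented static lay below native throughout. Over the 9 cultured libraries, Pearson's r of log2 CPM was 0.913 between HAS2 and CD44, 0.838 between HAS2 and TNFAIP6 and 0.801 between CD44 and TNFAIP6, while for HYAL2 with the other 5 genes it was -0.591 to 0.215. These libraries share groups and scaling, and r is given as a description.

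**Figure D3:**
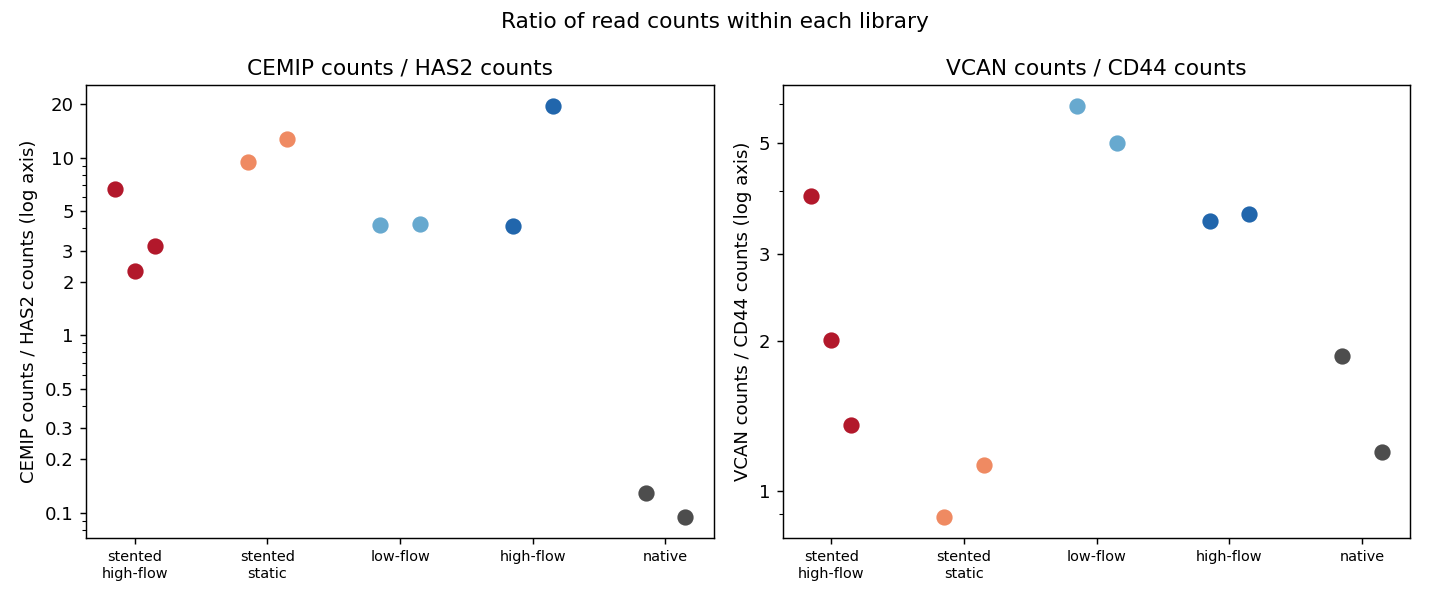
Points are libraries, and the vertical axes are the ratios of CEMIP to HAS2 counts and of VCAN to CD44 counts, on log axes. The CEMIP to HAS2 ratio was 0.129 or less in native and 2.29 or more in all cultured libraries, while the VCAN to CD44 ratio was 5.0 or more only in the low-flow libraries.

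The genes whose log2 CPM followed CEMIP most closely over the 11 libraries, among 8401 genes with a symbol and a mean log2 CPM of at least 3, were ITGA5 (Pearson r = 0.981), BMAL1 (0.977), VDR (0.976), ACSL4 (0.972) and FASTKD3 (0.971). ITGA5, a fibronectin receptor subunit, was at 817 to 1806 CPM in cultured and 148 to 180 CPM in native libraries. Much of this likeness is the step between culture and native: over the 9 cultured libraries alone r was 0.693 to 0.815. For HAS2 the closest were MYH9 (r = 0.942), CDCA7L (0.913), ABCD3, PRKAB1 and TTI2 (0.911 each), and over the 9 cultured libraries r was 0.921 to 0.967. MYH9, the non-muscle myosin heavy chain, ranged from 494 to 1254 CPM in culture and was at 814 and 826 CPM in native. These values describe libraries that share depth and culture, and carry no test.

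A further 55 genes of hyaluronan supply, breakdown, uptake and crosslinking were listed, of which 51 were matched and 46 tested. In stented high-flow arteries 15 were higher and 12 lower than in native, which is 58.7% of those tested against 24.3% of all genes. The counts were 9 higher and 6 lower in stented static, 9 and 6 in low-flow, and 7 and 8 in high-flow, 32.6% each. Over all genes the shares called were 12.7% in stented static, 12.4% in low-flow and 14.8% in high-flow. The median log2 fold change of the list was 0.21 to 0.26 in these comparisons, against 0.00 to 0.06 over all genes. Leaving out native replicate 1 or replicate 2 ended 16 of the 27 calls in stented high-flow each time, 11 of 15 in stented static, 11 and 10 of 15 in low-flow, and 8 and 9 of 15 in high-flow, with edgeR adjusted p-values up to 0.696 among those lost, and no call changed sign. Leaving out 1 library of the culture concerned ended 2 to 9 calls in stented high-flow, 10 without replicate 1 and 4 without replicate 2 in stented static, 12 without either in low-flow, and 8 without replicate 1 and 6 without replicate 2 in high-flow. These genes were listed with earlier results of the series known.

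Synthesis and substrate supply genes that were called were higher than native in each culture. HAS1 (1.63 to 7.59 CPM over the 9 cultured libraries, 4.17 and 2.47 CPM in native) passed in no comparison. Of 9 tested genes 6 were called higher in stented high-flow and 2 in each of the other cultures, and none was called lower. Over all genes, 10.4% were called higher in stented high-flow, 5.54% in stented static, 5.03% in low-flow and 5.94% in high-flow. GNPNAT1 had negative estimates, at -0.42 in stented high-flow, -0.83 in stented static, -0.86 in low-flow and -0.81 in high-flow (edgeR adjusted p = 0.169 to 0.42). UGP2, which makes UDP-glucose, was higher in all 4, with log2 fold changes of 2.44 ± 0.49 in stented high-flow, 2.23 ± 0.51 in stented static, 1.75 ± 0.50 in low-flow and 1.98 ± 0.50 in high-flow (edgeR adjusted p = 0.00516 to 0.043). UGDH, which oxidises UDP-glucose to UDP-glucuronate, was higher in stented high-flow (1.92 ± 0.45, edgeR adjusted p = 0.0114) and low-flow (1.87 ± 0.48, adjusted p = 0.0277). It had 106, 220 and 109 CPM in stented high-flow, 84.8 and 109 CPM in stented static, 159 and 121 CPM in low-flow, 153 and 59.4 CPM in high-flow and 36.5 and 39.9 CPM in native libraries, all cultures being above native. UAP1, of the UDP-N-acetylglucosamine branch, was higher in stented high-flow (1.34 ± 0.26), stented static (1.15 ± 0.28) and high-flow (1.12 ± 0.28, edgeR adjusted p = 0.00496 to 0.0242), and PGM3 of the same branch in stented high-flow (1.44 ± 0.38, adjusted p = 0.0203). Without native replicate 1 none of these calls held in edgeR (adjusted p = 0.0521 to 0.22). Without native replicate 2 only UGP2 and UAP1 in stented high-flow did.

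Among the breakdown genes other than CEMIP and HYAL2, the lysosomal exoglycosidases GUSB and HEXA were higher in all 4 cultures. GUSB changed by 1.66 ± 0.35 in stented high-flow, 1.33 ± 0.37 in stented static, 1.44 ± 0.37 in low-flow and 1.65 ± 0.38 in high-flow (edgeR adjusted p = 0.00714 to 0.0394), and HEXA by 0.92 to 1.17 (0.0265 to 0.0372). CEMIP2, a cell surface hyaluronidase described in mouse, had 81.5, 102 and 61.7 CPM in stented high-flow, 55.9 and 38.8 CPM in stented static, 84.6 and 64.3 CPM in low-flow, 125 and 56.7 CPM in high-flow and 24.9 and 15.4 CPM in native libraries. All cultured libraries were above both native ones. It was higher by 2.02 ± 0.41 in stented high-flow, 1.89 ± 0.43 in low-flow and 2.17 ± 0.43 in high-flow (edgeR adjusted p = 0.00541 to 0.0171), and was at 1.24 ± 0.42 in stented static (adjusted p = 0.0761). Without native replicate 2 none of these calls held in edgeR (adjusted p = 0.0543 to 0.174), and without replicate 1 those of CEMIP2 in stented high-flow and high-flow did (0.0603 to 0.202 for those lost). HYAL3 was under 1 CPM in every library and passed in none, and HYAL1 is not analysed here.

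Among the 6 receptors and uptake genes tested, LYVE1, a receptor of lymphatic endothelium and some macrophages, was lower in 3 of 4 cultures. It had 4.31, 5.16 and 4.83 CPM in stented high-flow, 14.9 and 9.49 CPM in stented static, 6.25 and 9.68 CPM in low-flow, 12.1 and 5.44 CPM in high-flow and 27.1 and 24.1 CPM in native libraries, with every cultured library below both native ones. The log2 fold change was -2.42 ± 0.38 in stented high-flow, -1.68 ± 0.43 in low-flow and -1.55 ± 0.43 in high-flow (edgeR adjusted p = 0.00148 to 0.0329), and -1.07 ± 0.42 in stented static (adjusted p = 0.117). In stented high-flow the call held without either native replicate, while in low-flow and high-flow it did not (0.11 to 0.154). HMMR, a hyaluronan-binding protein best known from dividing cells, was at 2.16 ± 0.71 in stented high-flow (edgeR adjusted p = 0.0468), a call lost in 9 of 16 alternatives. Its estimates were alike in low-flow (2.055 ± 0.74) and high-flow (2.13 ± 0.74, edgeR adjusted p = 0.0945 and 0.0781), with all libraries above native. In stented static HMMR was at 0.72 ± 0.73 (adjusted p = 0.553). TLR4 was higher in stented static (1.66 ± 0.34) and low-flow (1.36 ± 0.33), and TLR2 in stented static (1.58 ± 0.37, edgeR adjusted p = 0.011 to 0.0243), all lost without either native replicate (0.0685 to 0.15). Both are innate immune receptors, and the summed macrophage markers were 1011 to 2341 CPM in stented static and 906 to 1140 CPM in low-flow, against 551 to 571 CPM in native. Their part in these values was not tested.

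STAB1, a scavenger receptor of macrophages and sinusoidal endothelium, had 46.1, 28.1 and 78.7 CPM in stented high-flow, against 309 and 186 CPM in stented static. It was lower in stented high-flow by -2.28 ± 0.39 on the log2 scale (edgeR adjusted p = 0.015). The call was lost without stented static replicate 1 (log2 fold change -1.87). With only the libraries of 1 count table it was lost as well (edgeR adjusted p = 0.0556). Against native (169 and 132 CPM) STAB1 was also lower in stented high-flow, at -1.56 ± 0.38 (edgeR adjusted p = 0.0136), a call lost without either native replicate. In high-flow it had 76.2 to 86.5 CPM, overlapping with stented high-flow and below both native libraries (-0.885 ± 0.43, edgeR adjusted p = 0.189). STAB1 was at -0.17 ± 0.42 in low-flow and 0.72 ± 0.42 in stented static (edgeR adjusted p = 0.835 and 0.286). The macrophage marker sums given above ran the same way between the stented groups, but overlapped between stented high-flow and native. Summed endothelial markers were 335 to 475 CPM in stented high-flow, 413 to 1086 CPM in stented static and 823 to 972 CPM in native libraries. The part of either cell type in STAB1 was not tested.

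HAPLN4 and PTX3 rose most among the binding and crosslinking genes. HAPLN4 (chromosome 2, 58627709 to 58634461), a link protein best known from brain, had 27.3, 79.8 and 138 CPM in stented high-flow, 40.8 and 27.1 CPM in stented static, 61.1 and 52.7 CPM in low-flow, 69.3 and 44.1 CPM in high-flow and 1.69 and 1.84 CPM in native libraries. The lowest cultured library was thus far above both native ones. It rose by 5.53 ± 0.68 on the log2 scale in stented high-flow, 4.26 ± 0.66 in stented static, 5.003 ± 0.68 in low-flow and 4.997 ± 0.68 in high-flow (edgeR adjusted p = 0.000418 to 0.00304), and it was called under all 16 alternatives in all 4. Its neighbour NCAN lies 4.35 kb away and was under 1 CPM in every library but native replicate 2 (2.42 CPM). Whether counting used strand is not stated.

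PTX3 (chromosome 13, 97273594 to 97279570), a pentraxin that joins TNFAIP6 in crosslinking hyaluronan around the oocyte in mouse, had 339, 288 and 259 CPM in stented high-flow, 210 and 922 CPM in stented static, 194 and 158 CPM in low-flow, 259 and 151 CPM in high-flow and 13.5 and 14.6 CPM in native libraries. Again no cultured library overlapped with native. Its log2 fold change was 4.39 ± 0.60 in stented high-flow, 5.33 ± 0.64 in stented static, 3.65 ± 0.59 in low-flow and 3.86 ± 0.60 in high-flow (edgeR adjusted p = 0.000694 to 0.00373, and 0.0506 in low-flow without native replicate 1).

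The other changes in the binding group were falls. HABP4 was lower in all 4 cultures, by -1.18 ± 0.22 in stented high-flow, -1.39 ± 0.25 in stented static, -1.42 ± 0.25 in low-flow and -1.18 ± 0.25 in high-flow (edgeR adjusted p = 0.00347 to 0.0102, and 0.0511 to 0.0989 without native replicate 2). HABP4 is known as an intracellular RNA-binding protein, despite its name. ITIH5, of the inter-alpha-inhibitor heavy chain family, had 213, 58.6 and 42.0 CPM in stented high-flow, against 1090 and 1086 CPM in native, and was lower by -3.38 ± 0.79 (edgeR adjusted p = 0.0108). All other cultured libraries were below native too, with 127 to 274 CPM in stented static, 324 to 465 CPM in low-flow and 62.4 to 400 CPM in high-flow. ITIH5 was at -2.44 ± 0.88 in stented static and -1.46 ± 0.85 in low-flow (edgeR adjusted p = 0.0928 and 0.291). The lectican ACAN was lower in stented high-flow (-2.03 ± 0.65), stented static (-2.89 ± 0.78) and high-flow (-4.01 ± 0.83, edgeR adjusted p = 0.0102 to 0.0431), and was at 0.61 ± 0.71 in low-flow (adjusted p = 0.62). The ACAN call was lost in 10 of 16 alternatives in stented high-flow, 6 in stented static and 3 in high-flow, each time including the fit without native replicate 1. HAPLN3 was lower in low-flow (-1.94 ± 0.51) and high-flow (-2.38 ± 0.52, edgeR adjusted p = 0.0124 to 0.0302). Each HAPLN3 call was lost in 4 of 16 alternatives, on leaving out any 1 library of native or of the culture concerned. ACAN and HAPLN3 overlap by 817 bases on chromosome 7, so some of their reads may be uncertain. ITIH4 (-1.90 ± 0.58) and NCAN (-3.94 ± 1.28) passed in stented high-flow (edgeR adjusted p = 0.0365 and 0.0452), with ITIH4 lost in 5 of 16 alternatives (up to 0.165) and NCAN in 9, at up to 0.696 without native replicate 2. ITIH4 was below native in every cultured library, and at -1.63 ± 0.66 in stented static and -1.22 ± 0.65 in low-flow (edgeR adjusted p = 0.128 and 0.248). HAPLN1, which lies 45.8 kb from VCAN, was lower in the estimate in all 4 cultures (-2.32, -3.17, -1.78 and -3.05) and passed in none (edgeR adjusted p = 0.0501 to 0.214). The authors' deposited changes do list HAPLN1 in high-flow against native, at -3.06.

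Of the 6 ADAMTS proteases known to cleave versican, ADAMTS1, ADAMTS15 and ADAMTS20 fell in all 4 cultures. ADAMTS15 (chromosome 9, 57127527 to 57152550) had 7.96, 3.70 and 4.17 CPM in stented high-flow, 26.3 and 46.8 CPM in stented static, 26.7 and 33.8 CPM in low-flow, 5.24 and 27.4 CPM in high-flow and 726 and 539 CPM in native libraries. The highest cultured library was thus far below both native ones. The log2 fold change was -6.91 ± 0.67 in stented high-flow, -4.11 ± 0.70 in stented static, -4.39 ± 0.70 in low-flow and -5.28 ± 0.74 in high-flow (edgeR adjusted p = 0.000148 to 0.0044, and 0.0571 in low-flow without low-flow replicate 1). It was also lower in stented high-flow than in stented static (-2.80 ± 0.58, edgeR adjusted p = 0.0316), a call lost in 9 of 16 alternatives, 8 of which each left out 1 library (0.052 to 0.112).

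ADAMTS1 fell, with log2 fold changes of -2.73 to -1.86 (edgeR adjusted p = 0.00377 to 0.014), and so did ADAMTS20, with -5.06 to -2.51 (0.000911 to 0.0267). In stented static ADAMTS1 was lost in 3 of 16 alternatives and ADAMTS20 in 4, both including the fit without native replicate 1. In low-flow ADAMTS1 was lost without low-flow replicate 2, and ADAMTS20 without native replicate 1 or either low-flow replicate. ADAMTS20 rests on few reads: it had 0.502 to 1.01 CPM in stented high-flow, 1.86 to 2.43 CPM in stented static, 0.944 to 1.71 CPM in low-flow and 0.305 to 0.411 CPM in high-flow (14 counts in all). The native libraries stood apart, at 5.75 and 18.6 CPM. ADAMTS5, like ADAMTS1 on chromosome 13, went the other way: it had 442, 193 and 51.7 CPM in stented high-flow, 136 and 398 CPM in stented static, 139 and 153 CPM in low-flow, 68.8 and 133 CPM in high-flow and 20.1 and 25.6 CPM in native libraries. All cultured libraries were above native, and it passed in stented high-flow (3.33 ± 0.81) and stented static (3.55 ± 0.84, edgeR adjusted p = 0.0131 and 0.0214, lost without either native replicate at 0.0775 to 0.137). In low-flow it was at 2.67 ± 0.81 and in high-flow at 2.14 ± 0.80 (adjusted p = 0.0541 and 0.0952). The authors' deposited changes list ADAMTS5 in low-flow and high-flow against native as well as in the stented cultures, at 2.68 and 2.14 in the former. The contractile markers were also lower in every culture, in the sums given above, and their part in these falls was not tested.

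Of 6 genes that link CD44 to the cytoskeleton, ANK3 was lower in stented high-flow (-3.55 ± 0.57), stented static (-2.19 ± 0.62) and high-flow (-2.74 ± 0.64, edgeR adjusted p = 0.00157 to 0.042). Without either native replicate the calls in stented static and high-flow were lost (0.0578 to 0.178). EZR (0.98 ± 0.27) and MSN (0.83 ± 0.25) were higher and ANK2 (-0.95 ± 0.26) lower in stented high-flow (edgeR adjusted p = 0.0212 to 0.0313), and all 3 were lost without either native replicate (0.0689 to 0.256). ANK2 was about as low in stented static (-0.93 ± 0.29, edgeR adjusted p = 0.0555) and high-flow (-0.92 ± 0.29, adjusted p = 0.0542), just short of the threshold. The 3 proteins EZR, MSN and RDX anchor membrane receptors to actin, and RDX passed in none.

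Between cultured groups, edgeR called only STAB1 and ADAMTS15 in this wider list, both in stented high-flow against stented static. These are 4.35% of 46 tested, against 2.85% of all genes. In that contrast 11 of 46 had an unadjusted p under 0.05, against 19.1% of all genes. DESeq2 called 7 of 46, against 1376 of 15348 genes. In low-flow against high-flow edgeR called 0 of 46, with 6 at an unadjusted p under 0.05, against 8.05% of all genes. DESeq2 called 1 of 46 there, against 105 of 15348 genes. ACAN had the largest change there, named after its value was seen: it had 22.2 and 11.95 CPM in low-flow, against 0.712 and 0.667 CPM in high-flow, a log2 fold change of 4.62 ± 0.85 (edgeR adjusted p = 0.136). In stented high-flow against high-flow edgeR called 0, with 5 at an unadjusted p under 0.05, against 3.04% of all genes, and 0 called by DESeq2.

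**Figure D4:**
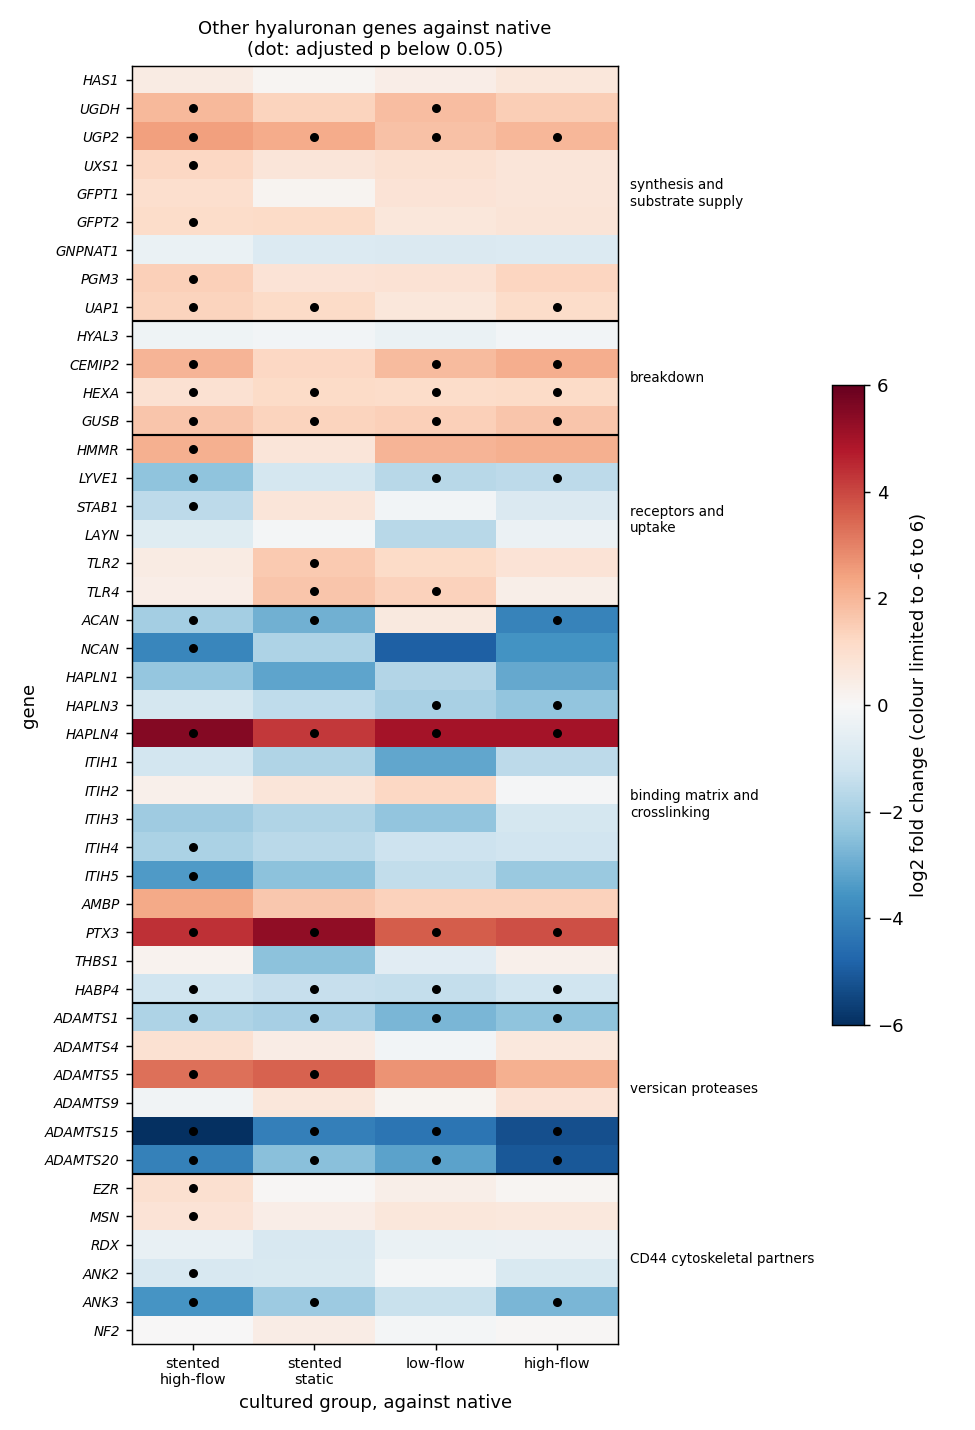
Colour gives the log2 fold change of each cultured group against native for the further genes reported here (colours end at -6 and 6), and dots mark an adjusted p below 0.05. HAPLN4 and PTX3 are red and ADAMTS1, ADAMTS15 and ADAMTS20 blue, with dots, in all 4 columns.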

How the data were processed

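Reads had been trimmed (Trimmomatic) and quality-checked (FastQC), Sscrofa11.1 was the build, and DESeq2 served for the authors' own group comparisons, per the submitters' processing notes. Neither labels nor notes name the aligner, the counter or the annotation release. The deposited files are 2 tables of raw gene counts, with 1 column a library, and were joined on the identifiers. Log2 fold changes were also deposited by the authors for their changed genes, and were only copied for comparison. Coordinates were taken from RefSeq (Sscrofa11.1) by symbol. No sequence or exon length was used.

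R 4.3.3 and edgeR 4.0.16 were used: filterByExpr, TMM scaling and quasi-likelihood F-tests from a single model of all 5 groups, with Benjamini-Hochberg adjustment over 15348 genes and a threshold of 0.05. Standard errors were derived from the F statistic, and 95% intervals from a t distribution with the fit's degrees of freedom. Neighbours by pattern used log2 CPM with a prior count of 2. Replicates correlated at 0.932 to 0.98 (Pearson, log2 CPM). The 3-count floor covers counting error only. Fits were tested on simulated data.

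The set, the 55 further genes and the marker lists were chosen with earlier results of these data known. Named were all set members, up to 4 called genes per list and comparison with the largest change, HAS1, HYAL1, HMMR, LYVE1, HAPLN1 and CEMIP2, and the 5 nearest neighbours of CEMIP and HAS2. HYAL3, RDX, GNPNAT1, ACAN and ITIH4 in stented high-flow, and HABP4 in stented high-flow and high-flow, fall outside this rule and were added with their values known. The same holds for values of named genes in cultures where they were not called. As alternatives, the fits were repeated with DESeq2 1.42.0, RLE size factors, no filter on low counts, a replicate block, only the libraries of 1 count table, and without each library in turn. A gene counted in the list totals is not reported here by name.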

Additional observations from a re-analysis of the deposited data

Results flagged for a closer look

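HAS2 and VCAN differed between the stented groups by a test of the difference itself. HAS2 was 3.37 higher on the log2 scale in stented high-flow than in stented static arteries, and VCAN 2.15 higher (edgeR adjusted p = 0.0263 and 0.0169). Against native, HAS2 was at 2.04 in stented high-flow and at -1.33 in stented static, and VCAN at 1.62 and -0.53, so that the estimates of both genes had opposite signs in the stented groups. The set was chosen with these levels known, so the tests are not independent of the choice. In this contrast flow cannot be told apart from the d marks of the sample names or from sex-linked origin. Both calls were lost without stented static replicate 1.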

How the results depend on the processing

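Without any single library, CEMIP stayed between 4.63 and 7.08 on the log2 scale above native in the 4 cultures. The count of all genes called was 3737 in stented high-flow (2489 with a replicate block, 1542 to 4128 leaving out single libraries), 1955 in stented static (3089 by DESeq2, 1232 from libraries of 1 table, 514 to 2474 leaving out single libraries), 1904 in low-flow (2903 by DESeq2, 3363 from 1 table, 361 to 2307) and 2272 in high-flow (3854 from 1 table, 752 to 2800). In stented high-flow against stented static it was 438 (1376 by DESeq2, 1003 with no filter, 185 with the block, 160 from 1 table, 95 to 784), and the count of set genes was 2 (5 by DESeq2, 4 with no filter, 1 with the block, 0 to 3). In low-flow against high-flow it was 16 (105 by DESeq2, 54 with no filter, 46 from 1 table, 5 to 20), and in stented high-flow against high-flow 0 (6 by DESeq2, 0 to 1). Leaving out single libraries gave HYAL2 -1.09 to 0.40 in stented high-flow against stented static, CD44 -0.65 to 0.22, TNFAIP6 -1.03 to 1.21 and HAS2 -0.65 to 1.32 in low-flow against high-flow, and VCAN -0.39 to 0.44 and HYAL2 -0.36 to 0.24 in stented high-flow against high-flow, all log2 fold changes, none of them called. With the replicate block, which fits stented high-flow replicate 3 by itself, VCAN in that contrast was 0.15, and HAS2 in stented high-flow against stented static had an adjusted p of 0.0717. Deviations from the group mean correlated at r = -0.329 to 0.183 between same-numbered libraries. For stented high-flow replicate 1 and native replicate 2, whose names share the number 25, r was 0.041. In a group of 2 libraries the deviations mirror each other, so these values cannot decide whether libraries share a pig. No numbers were taken as pairs, because the labels state none. The 1-table fit could not be run for stented high-flow against high-flow, whose libraries are in different tables. Why values moved was not tested. With 2 or 3 libraries a group, the spread between libraries and not depth sets the intervals.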
